A study of Mus musculus with 15 samples.

Results

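The cells described here came from islets of Pdx-cre mice, in which red fluorescent protein (RFP) was switched on by cre recombinase, and were sorted by aldehyde dehydrogenase (ALDH) activity. All libraries whose label gives Pdx-cre as the driver were taken, which were 6 of the 15 in the series: 3 of ALDH+ cells and 3 of ALDH- cells. The ALDH+ libraries were control 2 and Foxo knockout 4 and 5, and the ALDH- libraries were control 3 and Foxo knockout 4 and 5. Control mice were heterozygous for FoxO 1, 3 and 4, although the study calls them wild-type, and the labels give all 3 genes as knocked out in the knockout mice, where the cells with active cre are the ones meant to lose them. All mice shared the mixed 129JC57BL/6 background. The other 9 libraries came from Rip-cre mice, with 5 libraries of ALDH- cells (2 control, 3 knockout) and 4 of ALDH+ cells (1 control, 3 knockout), and no library belonged to both lineages. The labels give no age for either lineage, and the study's sorting methods give an age and the pooling of animals for Rip-cre mice only. With 1 control library in each Pdx-cre state, differences within the control genotype had no replicate check. Nothing in the labels says which libraries came from separate animals, so p-values measure the spread between these libraries, which may in part be technical.

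Pdx1 is a homeodomain factor of early pancreatic precursors, so Pdx-cre marks their progeny, which include all islet endocrine cell types as well as acinar and duct cells. Rip-cre uses the rat insulin promoter and acts in beta cells. Islets hold beta cells that make insulin and amylin, alpha cells that make glucagon, delta cells that make somatostatin, PP cells that make pancreatic polypeptide, and rare epsilon cells that make ghrelin. The aldefluor reagent is a fluorescent aldehyde that ALDH enzymes turn into a trapped product, so bright cells are those with high ALDH activity. In mouse islets the enzyme linked to this signal is Aldh1a3, which makes retinoic acid from retinaldehyde. The comparison asks how RFP+ cells with high ALDH activity differed from RFP+ cells without it, when the marked lineage is not limited to beta cells.

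The sort and the genotype were checked first. Aldh1a3 was at 1.66 FPKM (fragments scaled for transcript length and sequencing depth) in control ALDH- 3 and at 0.506 and 3.87 FPKM in knockout ALDH- 4 and 5. It was at 24.9 FPKM in control ALDH+ 2 and at 33.4 and 76.9 FPKM in knockout ALDH+ 4 and 5. All 3 ALDH+ libraries lay above all 3 ALDH- libraries, with a log2 fold change of 3.90 (SE 0.52, adjusted p = 0.083), which missed the threshold of 0.05. Over the 6 fits with 1 library left out, the adjusted p of Aldh1a3 ran from 0.046, without knockout ALDH- 4, to 0.39. It was under 0.05 in 3 of 19 alternative fits. Fold changes are on the log2(FPKM + 1) scale after rescaling between libraries, with Foxo genotype in the model, and adjusted p-values come from limma with Benjamini-Hochberg adjustment. Of the 20 Aldh genes listed, 12 were tested. The other 11 had log2 fold changes from -0.47 to 0.18, and 0 of them had an unadjusted p under 0.05 (9.98% of all tested genes did). Aldh1a1 and Aldh1a2, the other retinaldehyde dehydrogenases often studied in islets, were listed at 0 in all 6 libraries. Foxo1 was at 16.2 FPKM in control ALDH- 3 and 12.04 FPKM in control ALDH+ 2, against 4.24, 0.0925, 0.523 and 1.98 FPKM in the 4 knockout libraries. Foxo3 ranged from 11.1 to 30.6 FPKM with no lower range in knockouts. Foxo4 was at 0.110 FPKM or less in all 6 libraries, the controls included, so it gave no check of the genotype. The deposited tables do not show which exons the reads of a floxed gene came from.

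The 6 libraries held between 7492010 and 9730649 fragments over genes with a usable estimate, and their log2 profiles correlated at 0.945 to 0.967 between any pair. Pairs within one ALDH state correlated at 0.948 to 0.965, so no library stood apart by this measure. The fit tested 11297 genes. Of these, 4 passed an adjusted p of 0.05, which is 0.0354% of those tested, with 2 higher (0.0177%) and 2 lower (0.0177%) in ALDH+ cells. An unadjusted p under 0.05 was reached by 1128 genes (9.98%), 436 of them higher and 692 lower. In 897 genes (7.94%) all 3 ALDH+ libraries lay above all 3 ALDH- libraries, and in 976 (8.64%) all 3 lay below, both counted on the rescaled values. With 1 library left out, the number of genes passing was 8 without control ALDH- 3, 14 without knockout ALDH- 4, 2 without knockout ALDH- 5, 8 without control ALDH+ 2, 3 without knockout ALDH+ 4 and 2 without knockout ALDH+ 5.

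Hormones of the non-beta islet cells made up most of the head of the ranking of lower genes. The 5 genes with the smallest p among those lower in ALDH+ cells were Rbp4, Sst, Gcg, Pyy and Gpx3, of which only Rbp4 and Sst passed the threshold. Fitted differences of the beta cell hormones measured beside them were small. In FPKM, Gcg, Sst, Ppy and Pyy together came to 67652 in control ALDH- 3, 35575 in knockout ALDH- 4 and 20767 in knockout ALDH- 5. In ALDH+ cells the same sum was 13236 in control 2, 1338 in knockout 4 and 2196 in knockout 5. All ALDH+ libraries were below all ALDH- libraries, and the lowest ALDH- value was that of a knockout while the highest ALDH+ value was that of the control.

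**Figure D1:**
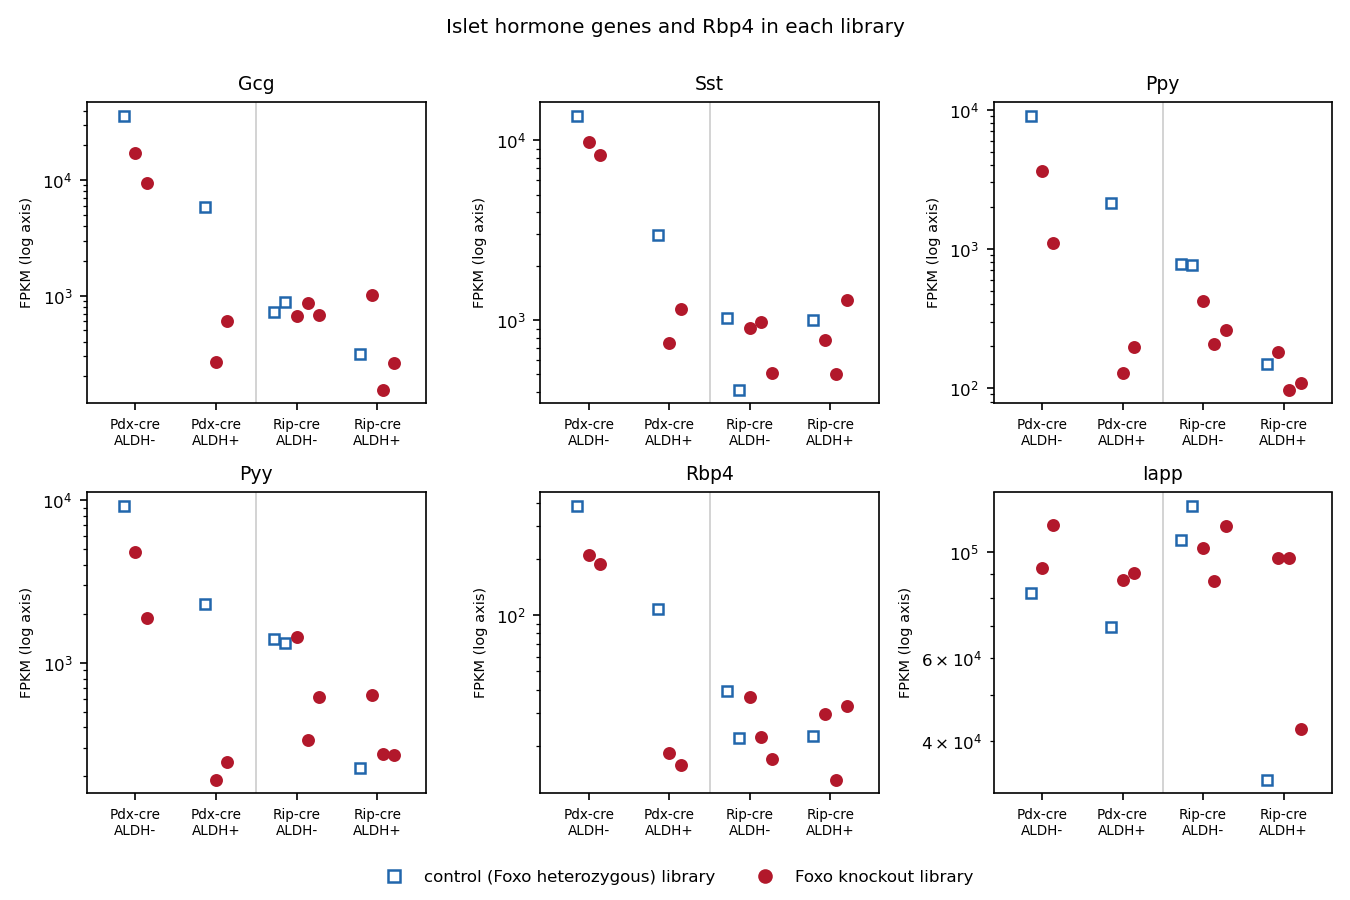
FPKM (log axis) of 5 hormone genes and Rbp4 in each of the 15 libraries, by cre driver and ALDH state, with open squares for control and filled circles for Foxo knockout libraries. For Sst and Rbp4 the Pdx-cre ALDH- points stand above all others, while Iapp spans similar values in the Pdx-cre groups.

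Somatostatin, the inhibitory hormone of delta cells, was encoded by Sst (chromosome 16, 23889667 to 23890930 as the tables give it, mm9 in the submitters' processing notes). Its level was 13631 FPKM in control ALDH- 3, 9792 FPKM in knockout ALDH- 4 and 8245 FPKM in knockout ALDH- 5. In ALDH+ cells it was 2981 FPKM in control 2, 752 FPKM in knockout 4 and 1156 FPKM in knockout 5. The groups did not overlap, and the smallest ALDH- value was well above the largest ALDH+ value. Sst fell by 2.94 on the log2 scale (SE 0.30, adjusted p = 0.019), a level 7.68-fold lower in ALDH+ cells. The mean was 10556 ± 2773 FPKM (SD, n = 3) in ALDH- and 1630 ± 1188 FPKM (SD, n = 3) in ALDH+ cells. The call was lost with no filter on low values (adjusted p = 0.53), no trend in the prior variance (0.14), the length trend removed (0.056) or no Foxo genotype in the model (0.17), and it rested on most of the libraries. The adjusted p was 0.063 without control ALDH- 3, 0.20 without knockout ALDH- 5, 0.083 without control ALDH+ 2, 0.23 without knockout ALDH+ 4 and 0.36 without knockout ALDH+ 5, with log2 fold changes from -3.26 to -2.67.

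Rbp4 (chromosome 19, 38191110 to 38199811), the plasma carrier of retinol, which mouse delta cells also make, had a similar pattern. It was at 383, 209 and 188 FPKM in control 3 and knockout 4 and 5 ALDH- cells. In ALDH+ cells it was at 107 FPKM in control 2 and at 18.3 and 15.7 FPKM in knockout 4 and 5. The groups did not overlap, and the control library was the highest of each group. Rbp4 fell by 2.95 on the log2 scale (SE 0.30, adjusted p = 0.019), or 7.75-fold. The adjusted p was 0.20 without knockout ALDH- 5, 0.20 without knockout ALDH+ 4 and 0.17 without knockout ALDH+ 5. It was 0.53 with no filter on low values, 0.19 with no trend in the prior variance, 0.061 with the length trend removed and 0.28 with no Foxo genotype in the model. The ratio of Sst to Rbp4 FPKM lay between 35.6 and 46.8 in ALDH- libraries and between 27.8 and 73.4 in ALDH+ libraries.

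The delta cell list held 6 genes, of which 4 were tested. Beside Sst and Rbp4, Hhex, a homeodomain factor needed for delta cells, was at 15.4, 11.2 and 9.81 FPKM in the ALDH- sort against 9.31, 0 and 6.84 FPKM in the ALDH+ sort. Its groups did not overlap, but its log2 fold change of -1.60 (SE 0.69) had an adjusted p of 0.50. The median over the 4 tested genes was -2.27, against -0.02 over all genes tested. Below the filter on low values, the ghrelin receptor gene Ghsr was at 3.07, 1.19 and 0.515 FPKM in the ALDH- sort against 0.319, 0 and 0.157 FPKM in the ALDH+ sort. In bulk libraries, fewer cells of a type and less of its RNA per cell cannot be told apart, for this list and for those that follow.

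Glucagon, the alpha cell hormone that raises blood glucose, showed the largest difference of the hormones by fitted value. Gcg (chromosome 2, 62312587 to 62321710) was at 35838 FPKM in control ALDH- 3, 17334 FPKM in knockout ALDH- 4 and 9533 FPKM in knockout ALDH- 5. It was at 5822 FPKM in control ALDH+ 2, 268 FPKM in knockout ALDH+ 4 and 598 FPKM in knockout ALDH+ 5. The groups did not overlap, and within each state the control library was the highest. The log2 fold change was -4.24 (SE 0.51, adjusted p = 0.057), which missed the threshold. Without control ALDH- 3 the adjusted p was 0.027, and without control ALDH+ 2 it was 0.033, with -4.99 in both cases, and both of these fits leave the knockout libraries to set the difference. The other 4 single-library omissions did not bring it under 0.05. In the knockout libraries alone, 2 against 2, the value was -4.99 (adjusted p = 0.0088).

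The alpha cell list held 10 genes, of which 7 were tested, 0 passed the threshold, and 2 were lower with an unadjusted p under 0.05 (6.13% of all tested genes were). All 7 had negative fold changes, against 51.5% of all genes tested, with a median of -0.84. Ttr and Gc, carrier proteins made by alpha cells and also found in other islet cells, had overlapping groups and log2 fold changes of -0.83 and -0.21. The factors Irx1 and Irx2 had -0.84 and -1.02, also with overlap. Pou3f4, under the filter on low values, was at 0.740, 1.73 and 1.58 FPKM in ALDH- cells and listed at 0 in all 3 ALDH+ libraries.

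Pancreatic polypeptide and peptide YY are related peptides encoded by neighbouring genes on chromosome 11. Ppy (101961245 to 101962614) was at 8978, 3608 and 1098 FPKM in control 3, knockout 4 and knockout 5 ALDH- cells. In ALDH+ cells it was at 2132 FPKM in control 2, 127 FPKM in knockout 4 and 199 FPKM in knockout 5. Control ALDH+ 2 therefore lay above knockout ALDH- 5, and the groups overlapped. The log2 fold change was -3.15 (SE 0.45, adjusted p = 0.089). Pyy (101967991 to 101969090) was at 9206, 4841 and 1890 FPKM in ALDH- cells, in the same order. It was at 2301, 191 and 244 FPKM in ALDH+ cells, again with the control ALDH+ library above the lowest ALDH- library, and had a log2 fold change of -3.23 (SE 0.41, adjusted p = 0.076). Without knockout ALDH- 4 the adjusted p was 0.015 for both genes. With another library left out it rose as high as 0.41 for Ppy and 0.39 for Pyy. Of 19 alternative fits, Ppy passed in 2 and Pyy in 3. The ratio of Ppy to Pyy FPKM stayed between 0.581 and 0.975 in all 6 libraries. The 2 other tested genes of the PP cell list, the transcription factor genes Etv1 and Meis2, had log2 fold changes of 0.00 and 0.10. The list held 5 genes, 4 of them tested, with 0 past the threshold and 2 lower with an unadjusted p under 0.05 (6.13% of all genes).

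The sequences before the starts of these 4 hormone genes are shown because their transcripts differed together between the states. They are the 150 bases before the first listed RefSeq transcript start of each gene (build GRCm38.p6, all on the minus strand), found for 4 of 4 genes. Capitals mark matches, on either strand, to a cyclic AMP response element (TGACGTCA), a TATA box (TATAAA) or a forkhead site (GTAAACA). No match overlapped another.
Sst, chr16:23890845-23890994: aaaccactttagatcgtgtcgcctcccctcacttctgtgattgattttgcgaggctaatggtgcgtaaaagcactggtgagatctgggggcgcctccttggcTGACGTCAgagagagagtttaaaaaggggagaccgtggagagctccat
Gcg, chr2:62483654-62483803: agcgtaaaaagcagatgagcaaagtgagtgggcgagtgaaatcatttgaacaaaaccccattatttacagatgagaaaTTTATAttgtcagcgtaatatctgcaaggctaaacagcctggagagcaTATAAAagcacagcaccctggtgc
Ppy, chr11:102101320-102101469: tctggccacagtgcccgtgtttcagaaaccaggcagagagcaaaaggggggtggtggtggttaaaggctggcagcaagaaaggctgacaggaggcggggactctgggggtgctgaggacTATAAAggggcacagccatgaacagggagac
Pyy, chr11:102107833-102107982: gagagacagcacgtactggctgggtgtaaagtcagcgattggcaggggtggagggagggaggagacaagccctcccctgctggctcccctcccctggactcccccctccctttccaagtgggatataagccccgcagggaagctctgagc

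The cyclic AMP response element lay 48 to 41 bases before the Sst start, and 1.36% of 32851 windows of this length over all genes held one. TATAAA was found in Gcg and Ppy, against 7.57% of all windows, and the second match in Gcg was on the opposite strand. The forkhead letters were found in 0 of the 4 windows and in 1.8% of all windows. These matches describe the letters in the windows and say nothing of factors bound there.

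Ghrelin, the epsilon cell hormone, had a different pattern across genotypes. Ghrl was listed at 0 in control ALDH- 3 and was at 42.2 and 47.7 FPKM in knockout ALDH- 4 and 5. In ALDH+ cells it was at 1.97 FPKM in control 2 and at 0.304 and 0.298 FPKM in knockout 4 and 5. The 2 knockout ALDH- libraries were high and the other 4 low, so the groups overlapped, and the log2 fold change was -2.89 (SE 1.14, adjusted p = 0.46). Ghrl was among the genes passing the threshold where a control library was left out. Neuropeptide Y, encoded by Npy, was at 195 and 146 FPKM in the control libraries and at 23.6 FPKM or less in the 4 knockout libraries, with a log2 fold change of -1.41 (adjusted p = 0.67). Of the 9 genes of ghrelin and other islet peptides, 7 were tested and 0 passed. With an unadjusted p under 0.05, 1 was higher (3.86% of all genes) and 1 lower (6.13% of all genes).

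Fitted differences of the beta cell genes were small, but the standard errors of the hormones were wide, so equal levels are not shown. Ins2 (chromosome 7, 149864561 to 149865613) was at 319701, 297056 and 317706 FPKM in the ALDH- sort against 272317, 304668 and 246963 FPKM in the ALDH+ sort. The groups overlapped, with a log2 fold change of -0.22 (SE 0.84, adjusted p = 0.96). Ins1 was marked too deep to estimate in every library and gave no value. Iapp, which encodes amylin, was at 81976, 92729 and 114338 FPKM in the ALDH- sort against 69597, 87332 and 90302 FPKM in the ALDH+ sort (-0.25, SE 0.56, adjusted p = 0.92). Of the 21 beta cell genes, 20 were tested and 0 passed the threshold. An unadjusted p under 0.05 in either direction was reached by 0 of them and by 9.98% of all genes. Their log2 fold changes ran from -0.53 for the channel gene Trpm5 to 0.33 for the granule gene Sytl4, with a median of -0.04 that became 0.07 under upper-quartile rescaling. That rescaling also moved the median of all genes from -0.02 to 0.09. Among the factors that define beta cells, Pdx1 had -0.15, Nkx6-1 had 0.26, Mafa had -0.05 and Neurod1 had 0.32. Mafa was near the floor, at 0.434 to 2.51 FPKM from 4 to 21 fragments per library. At such levels the log2(FPKM + 1) scale understates changes, so its value does not show an unchanged level.

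As a share of the summed FPKM of 6 hormone genes (Ins2, Iapp, Gcg, Sst, Ppy and Pyy), the 4 non-beta hormones held 14.4% in control ALDH- 3, 8.36% in knockout ALDH- 4 and 4.59% in knockout ALDH- 5. They held 3.73% in control ALDH+ 2, 0.340% in knockout ALDH+ 4 and 0.647% in knockout ALDH+ 5. Since Ins1 is missing from the sum, these shares overstate the non-beta part. Gcg was the largest of the 4 in the ALDH- libraries and in control ALDH+ 2, while Sst was the largest in both knockout ALDH+ libraries. The labels call all these libraries sorted beta cells, and Ins2 was the most abundant hormone gene in each, but the hormones of alpha, delta and PP cells were present in every library. Set against the FPKM of Iapp, the 4 hormones were 9.33-fold lower in ALDH+ cells on a log2 difference of -3.22 averaged within Foxo genotype. An exact permutation test within genotype gave a two-sided p = 0.167, which is the smallest that its 12 arrangements allow, and 3 against 3 libraries permuted without genotype could not go below 0.10.

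**Figure D2:**
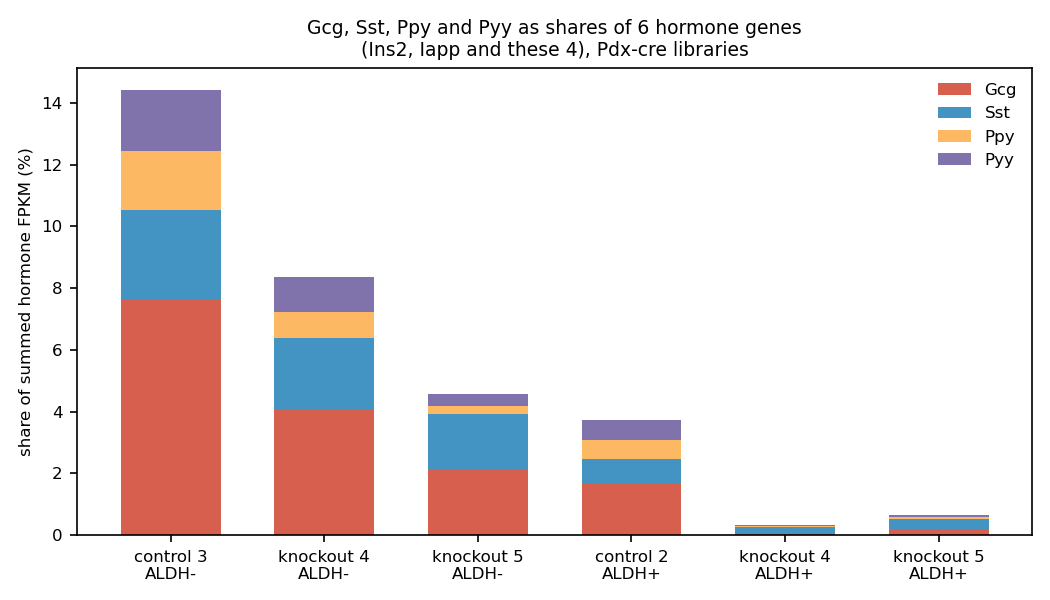
Stacked bars give Gcg, Sst, Ppy and Pyy as percent of the summed FPKM of 6 hormone genes in each Pdx-cre library, with the remainder being Ins2 and Iapp. The ALDH- bars reach 14.4%, 8.36% and 4.59%, and the ALDH+ bars 3.73%, 0.340% and 0.647%.

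Within each genotype the same hormones were lower in ALDH+ cells. Between the single control libraries, ALDH- over ALDH+ ratios of FPKM were 6.16 for Gcg, 4.57 for Sst, 4.21 for Ppy and 4.00 for Pyy. Between the means of the 2 knockout libraries of each state the ratios were 31.0 for Gcg, 9.45 for Sst, 14.4 for Ppy and 15.5 for Pyy. The control ratios were the smaller ones for all 4, but with 1 control library in each state the difference between genotypes was not tested. For Ins2 the ratio was 1.17 in controls and 1.11 in knockouts.

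Genes shared by endocrine cells did not follow the non-beta hormones. All 16 were tested, 0 passed, and 2 were lower with an unadjusted p under 0.05 (6.13% of all genes). Pcsk1n, which encodes the proSAAS inhibitor of prohormone convertase, was at 103, 81.3 and 88.8 FPKM in the ALDH- sort against 53.2, 47.7 and 41.4 FPKM in the ALDH+ sort (-0.96, SE 0.18, adjusted p = 0.27). Insm1, a zinc finger factor of endocrine cells, was at 87.8, 122 and 119 FPKM in the ALDH- sort against 83.6, 59.5 and 64.9 FPKM in the ALDH+ sort (-0.68, SE 0.21, adjusted p = 0.37). Neither gene overlapped between the groups. The transcription factor genes Pax6 (0.32, adjusted p = 0.59) and Rfx6 (0.44, adjusted p = 0.58) did not overlap in the other direction on the rescaled values, although their deposited FPKM did overlap. The granin gene Chga had -0.16 and the carboxypeptidase gene Cpe had -0.03, both with overlap. The list median was -0.05, and 0.07 under upper-quartile rescaling.

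In the progenitor list 8 of 16 genes were tested, and 0 passed the threshold. Aldh1a3 and Rfx7 were the 2 that were higher with an unadjusted p under 0.05, and Neurog3 and Cd81 the 2 that were lower, where 3.86% of all genes were higher and 6.13% lower. Neurog3, the factor that starts endocrine differentiation, was at 5.28, 2.35 and 0.149 FPKM in the ALDH- sort against 0.234, 0 and 0 FPKM in the ALDH+ sort (log2 fold change -1.44, SE 0.60, adjusted p = 0.48). Its control ALDH+ library lay above the lowest ALDH- library, so the groups overlapped. Nanog and Pax4 were listed at 0 in all 6 libraries, and Pou5f1 was at 0.299 FPKM in control ALDH+ 2 and at 0 in the rest.

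**Figure D3:**
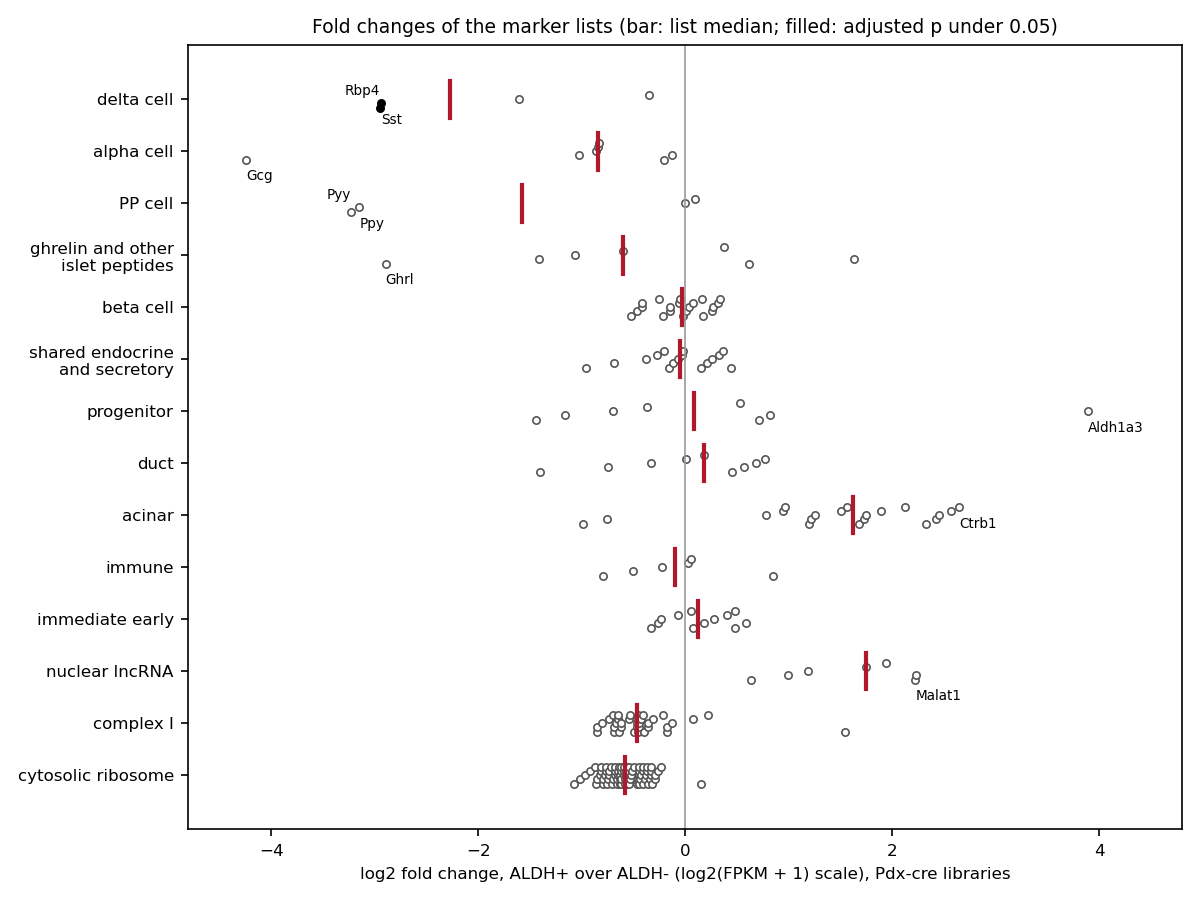
Each point is the log2 fold change of 1 tested gene, ALDH+ over ALDH-, in the Pdx-cre libraries, by marker list, with a bar at the list median and filled points for an adjusted p under 0.05. Delta, alpha and PP cell lists have medians of -2.27, -0.84 and -1.57, and the beta cell list one of -0.04. No PP cell gene lies near its list median, which falls between Ppy and Pyy (-3.15 and -3.23) and Etv1 and Meis2 (0.00 and 0.10).

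Exocrine transcripts differed between single libraries more than between the states. Ctrb1, which encodes the digestive enzyme chymotrypsinogen, was at 8.14, 0.1402 and 331 FPKM in the ALDH- sort against 1223, 0.285 and 601 FPKM in the ALDH+ sort. The 23 acinar genes listed once summed to 45.8, 30.2 and 447 FPKM in control 3, knockout 4 and knockout 5 ALDH- cells, and to 1767, 3.05 and 834 FPKM in control 2, knockout 4 and knockout 5 ALDH+ cells. Control ALDH+ 2 and both knockout 5 libraries were high, and the groups overlapped. Of the 24 acinar genes, 20 were tested, 0 passed, and the median log2 fold change was 1.62. With an unadjusted p under 0.05, 1 was higher and 1 lower, where 3.86% of all genes were higher and 6.13% lower. In the Rip-cre libraries the sum was 0.712 to 9.26 FPKM. Whether acinar RNA had a part in the hormone differences was not tested. The defining acinar factors Ptf1a and Rbpjl were at 0.480 FPKM or less.

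Other cell types were checked by their lists. Duct genes (12 listed, 9 tested, 0 past the threshold) summed to 437 to 818 FPKM in ALDH- and 486 to 1024 FPKM in ALDH+ cells, carried mostly by Spp1 (134 to 697 FPKM), Clu (99.2 to 220 FPKM) and Krt7 (91.6 to 141 FPKM). Of the tested duct genes only Tspan8, a tetraspanin, had an unadjusted p under 0.05 (6.13% of all genes were lower at that level). It was at 66.1, 34.0 and 23.7 FPKM in the ALDH- sort against 26.3, 9.80 and 10.2 FPKM in the ALDH+ sort (-1.41, SE 0.21, adjusted p = 0.11). The duct factor Sox9 was at 0.494 FPKM or less. Immune genes (16 listed, 6 tested) summed to 59.4 to 170 FPKM in ALDH- and 49.4 to 86.2 FPKM in ALDH+ cells, mostly Cd68. Of the 6 tested, 0 had an unadjusted p under 0.05, where 9.98% of all genes did. The pan-leukocyte gene Ptprc was at 0.0214 FPKM or less. Endothelial genes (12 listed, 1 tested) summed to at most 5.90 FPKM, Schwann cell genes (6 listed, 1 tested) to at most 2.49 FPKM and mesenchymal genes (11 listed, 0 tested) to at most 1.34 FPKM in any Pdx-cre library. Proliferation genes (10 listed, 1 tested) summed to between 2.56 and 6.29 FPKM.

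Nuclear long noncoding RNAs, which are retained in the nucleus rather than translated, did not pass the threshold but had 1 direction throughout. All 7 tested of 8 had the 3 ALDH+ libraries above the 3 ALDH- libraries, as 7.94% of all genes did. All 7 also had an unadjusted p under 0.05 (3.86% of all genes were higher at that level). Neat1, a scaffold of nuclear paraspeckles, was at 79.6, 88.7 and 47.1 FPKM in the ALDH- sort against 271, 189 and 272 FPKM in the ALDH+ sort (1.75, SE 0.24, adjusted p = 0.088). Malat1, a nuclear speckle RNA, was at 761, 1300 and 298 FPKM in the ALDH- sort against 4047, 2379 and 3347 FPKM in the ALDH+ sort (2.22, SE 0.45, adjusted p = 0.28). Meg3, an imprinted RNA, had 1.94 (adjusted p = 0.30). Without knockout ALDH- 4 all 3 passed, with adjusted p-values of 0.046 for Neat1, 0.014 for Malat1 and 0.040 for Meg3. For each of them this was the only 1 of 19 alternative fits with an adjusted p under 0.05. With another library left out the adjusted p rose as high as 0.59 for Neat1, 0.83 for Malat1 and 0.83 for Meg3.

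Most transcripts of the cytosolic ribosome and of complex I of the respiratory chain had the opposite sign, 80 of 81 and 33 of 36 tested. Of 84 cytosolic ribosomal protein genes 81 were tested, 0 passed, 56 were lower with an unadjusted p under 0.05, and 58 had all ALDH+ libraries below all ALDH- libraries, against 6.13% and 8.64% of all genes. Their median log2 fold change was -0.58, and their summed FPKM was 25218 to 30304 in ALDH- and 16033 to 18302 in ALDH+ cells. Of 37 complex I genes 36 were tested, 0 passed, 16 were lower with an unadjusted p under 0.05 and 17 had all ALDH+ libraries below, against the same shares of all genes, with a median of -0.46. Fold changes also rose with transcript length (across genes, Pearson r = 0.156, Spearman rho = 0.279), and genes are not independent replicates. With the length trend removed, the medians were -0.32 for the ribosomal and -0.20 for the complex I list. In the Rip-cre lineage, described further on, the medians were 1.76 for the nuclear RNAs, -0.76 for the ribosomal list and -0.73 for the complex I list. With an unadjusted p under 0.05, 7 of 7 nuclear RNAs were higher, and 74 of 81 ribosomal and 25 of 36 complex I genes were lower. Of all 11135 genes tested there, 713 were higher and 1047 lower at that level, and 15.8% reached it in either direction. The study itself named the nuclear RNA, ribosomal and complex I classes as changed in ALDH+ cells of this series, which its methods describe as sorted from Rip-cre mice. Their Rip-cre values are therefore no independent check. The part of the nuclear RNA, ribosomal and complex I shifts in the hormone differences was not tested. Immediate early genes, a sign of handling stress, had 12 of 12 tested, 0 past the threshold and a median of 0.13. Of them, 1 was higher with an unadjusted p under 0.05 (3.86% of all genes).

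**Figure D4:**
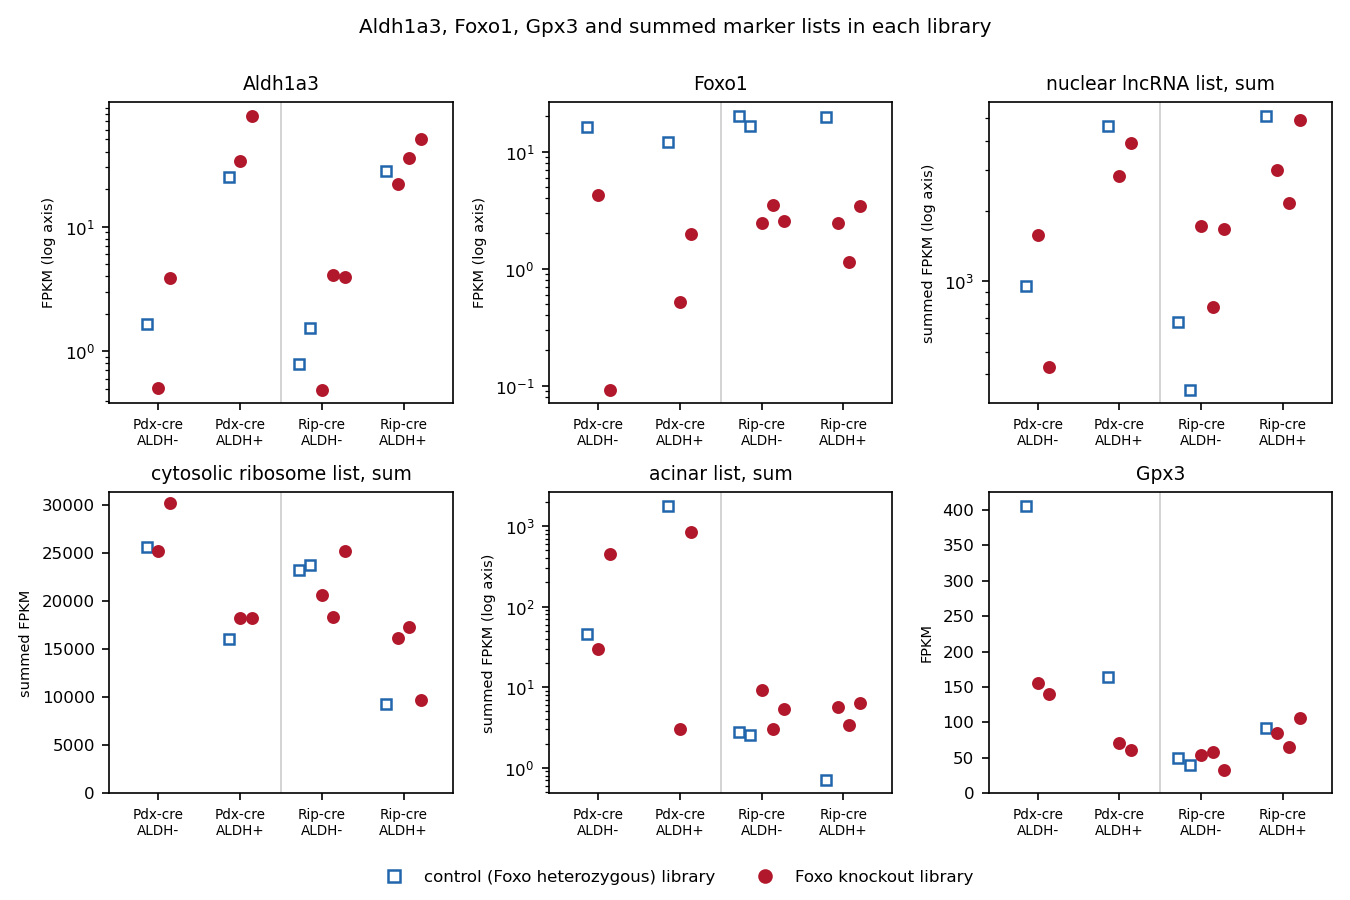
FPKM of Aldh1a3, Foxo1 and Gpx3 and summed FPKM of 3 marker lists in each of the 15 libraries, by cre driver and ALDH state, with open squares for control and filled circles for knockout libraries (log axes where labelled). The nuclear RNA sum is higher and the ribosomal sum lower in ALDH+ than in ALDH- cells of the Pdx-cre lineage, while the acinar sum is high in 3 single libraries.

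Both genes that passed the threshold upwards were small RNAs read from almost no fragments. Snora21, a small nucleolar RNA, was listed at 0 in all 3 ALDH- libraries and at 80.1, 74.3 and 109 FPKM in ALDH+ cells. The widths of the deposited confidence intervals correspond to 2, 2 and 3 fragments. Scarna3b, a Cajal body RNA, was listed at 0 in ALDH- cells and at 49.0, 45.5 and 44.6 FPKM in ALDH+ cells, each from 1 fragment. Their adjusted p-values were 0.00011 and 0.00022, but with so few fragments and a group at 0 no fold is given. Snord17, which followed Aldh1a3 in the ranking of higher genes, rested on 2, 7 and 3 fragments in ALDH+ and 0 in ALDH- libraries (adjusted p = 0.083). Aldh1a3 and Neat1, the other genes at the head of that ranking, rested on 766 to 2597 and 5809 to 8555 fragments in the ALDH+ libraries.

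The Rip-cre libraries, all distinct from the Pdx-cre ones, were used to ask whether these differences also appeared where the insulin promoter drove cre. These libraries also held non-beta hormones, so they are not shown to be beta cells alone. In FPKM, Gcg, Sst, Ppy and Pyy together came to 2067 to 3931 in Rip-cre ALDH- and 1030 to 2606 in Rip-cre ALDH+ cells. The same sum was 1338 and 2196 in Pdx-cre knockout ALDH+ 4 and 5. In the same kind of fit 11135 genes were tested and 3 passed (0.0269%). Aldh1a3 was higher (1 gene, 0.00898%) and Npy and 1810046J19Rik were lower (2 genes, 0.018%) in ALDH+ cells. Aldh1a3 was at 0.490 to 4.09 FPKM in ALDH- and at 22.1 to 50.7 FPKM in ALDH+ cells, and its adjusted p was 0.20 without Rip-cre control ALDH+ 1 and 0.088 without Rip-cre knockout ALDH+ 3. Npy passed in only 3 of the 9 fits with 1 Rip-cre library left out. Sst was at 412 to 1036 FPKM in Rip-cre ALDH- cells and at 506 to 1297 FPKM in Rip-cre ALDH+ cells, with a log2 fold change of 0.24 (SE 0.35, adjusted p = 0.79). Rbp4 was at 17.0 to 39.3 FPKM in ALDH- and 13.2 to 32.5 FPKM in ALDH+ cells (-0.12, SE 0.31, adjusted p = 0.89). Both Sst and Rbp4 were thus lower in every Rip-cre library than in every Pdx-cre ALDH- library. Gcg, Ppy and Pyy had Rip-cre log2 fold changes of -1.16, -1.53 and -1.39, all short of the threshold (adjusted p = 0.22, 0.11 and 0.18). Of these only Ppy had all 4 ALDH+ libraries below all 5 ALDH- libraries, as 3.1% of all genes did.

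The difference between the lineages was tested as an interaction, the Pdx-cre fold change minus the Rip-cre one, over all 15 libraries. Of 11253 genes, 1 passed (0.00889%), and 517 had an unadjusted p under 0.05 (4.59%). The gene was Gpx3 (chromosome 11, 54716355 to 54723889), which encodes a secreted glutathione peroxidase. In Pdx-cre cells it was at 406, 156 and 140 FPKM in the ALDH- sort against 165, 70.4 and 61.2 FPKM in the ALDH+ sort, with control above knockouts in both. In Rip-cre cells it was at 33.0 to 58.1 FPKM in ALDH- and at 65.8 to 106 FPKM in ALDH+ cells. All 4 Rip-cre ALDH+ libraries lay above all 5 ALDH- libraries, as in 2.55% of all genes. The fitted order of the states was opposite in the lineages, with log2 fold changes of -1.24 (SE 0.17, adjusted p = 0.083) and 0.90 (SE 0.21, adjusted p = 0.12). The interaction was -2.14 (SE 0.30, adjusted p = 0.041). It missed the threshold in 12 of the 15 fits with 1 library left out, all but those without Rip-cre knockout ALDH- 2 or 3 or knockout ALDH+ 2. It was also lost in knockout libraries only (adjusted p = 0.54) and with the length trend removed (0.158). Over the 15 fits it lay between -2.27 and -1.98 (adjusted p 0.020 to 0.23).

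**Figure D5:**
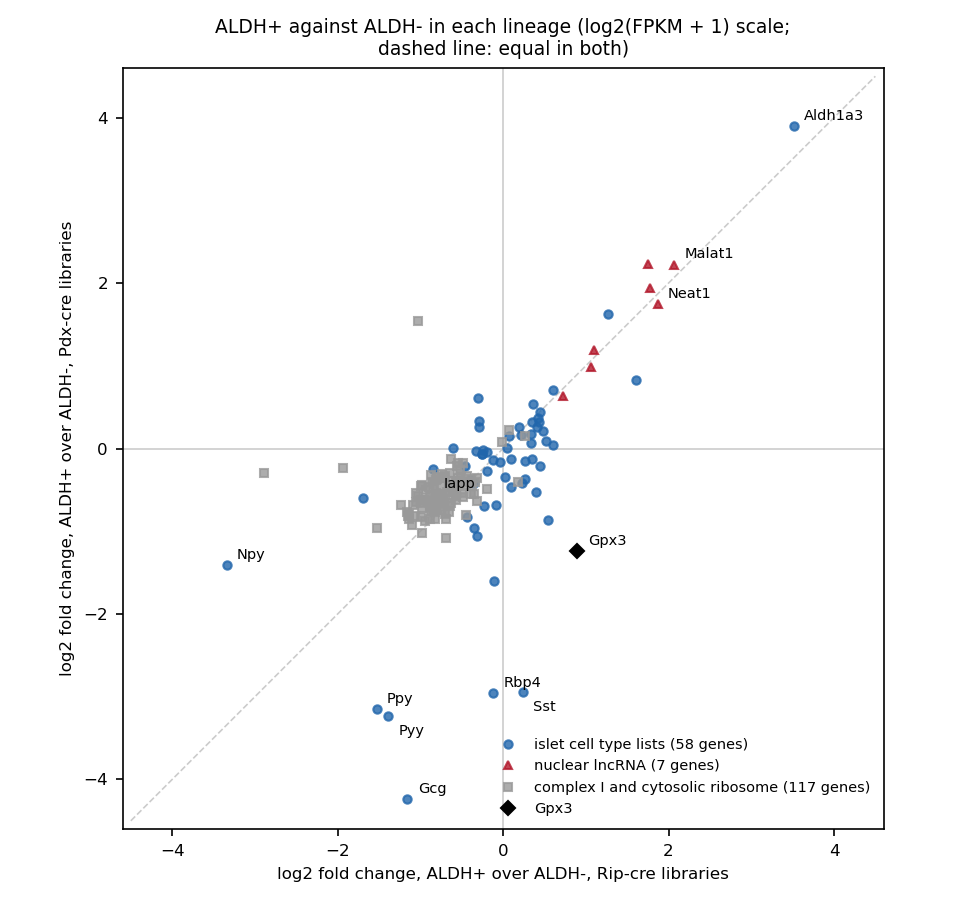
Log2 fold change, ALDH+ over ALDH-, in the Rip-cre libraries (horizontal) against the Pdx-cre libraries (vertical) for genes of the marker lists tested in both, and for Gpx3. Sst and Rbp4 lie near 0 for Rip-cre and near -2.95 for Pdx-cre, whereas Aldh1a3 and the nuclear long noncoding RNAs lie near the dashed line of equal values.

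Sst and Rbp4 followed Gpx3 and Gm1673 among the genes with a more negative difference in Pdx-cre cells. The interaction was -3.18 for Sst (SE 0.54, adjusted p = 0.11) and -2.83 for Rbp4 (SE 0.49, adjusted p = 0.11), with unadjusted p-values of 2.87e-05 and 3.87e-05. Without Rip-cre knockout ALDH+ 2 both passed, at an adjusted p of 0.034, the only 1 of 26 alternative fits in which they did. With another library left out the adjusted p rose as high as 0.35 for Sst and 0.47 for Rbp4. Gcg had -3.09 (SE 0.75, unadjusted p = 0.00097, adjusted p = 0.73). Ppy and Pyy had unadjusted p-values of 0.012 and 0.021 and adjusted p-values of 0.99. In the delta cell list 2 of 4 genes had a negative interaction with an unadjusted p under 0.05, and in the alpha and PP cell lists 2 of 6 and 2 of 4 did, where 2.26% of all genes did. In the beta cell list 1 of 19 was negative and 1 positive at that level, the latter reached by 2.34% of all genes. Aldh1a3 had an interaction of 0.40 (SE 0.70, adjusted p = 1.00) and Neat1 one of -0.12 (SE 0.55, adjusted p = 1.00). None of the 7 nuclear RNAs, 36 complex I genes or 81 ribosomal genes tested had an unadjusted interaction p under 0.05.

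The remaining genes in the interaction ranking did not pass the threshold. Gm1673 was at 7.90, 7.38 and 11.7 FPKM in Pdx-cre ALDH- cells and at 0, 0.440 and 0.864 FPKM in ALDH+ cells, with an interaction of -2.76 (adjusted p = 0.11). Gmnn, which encodes geminin, an inhibitor of DNA replication licensing, was at 6.06, 8.04 and 4.38 FPKM in Pdx-cre ALDH- cells and at 0.135, 0.628 and 0.862 FPKM in ALDH+ cells, with an interaction of -2.95 (adjusted p = 0.30). On the positive side, Alg14, part of an enzyme of N-glycan precursor assembly, was at 4.63, 10.7 and 7.91 FPKM in the ALDH- sort against 17.9, 16.1 and 20.4 FPKM in the ALDH+ sort, with an interaction of 1.64 (adjusted p = 0.14). Scarna3b (6.38, adjusted p = 0.16) rested on single fragments. Timm9, a chaperone of mitochondrial protein import, Marcksl1-ps4, a pseudogene whose reads may belong to its parent gene, and Chrac1, a chromatin remodelling subunit, had interactions of 1.52, 2.45 and 1.35 with adjusted p-values of 0.41, 0.57 and 0.75. Within the lineages, Timm9 had log2 fold changes of 0.17 in Pdx-cre and -1.35 in Rip-cre cells, Chrac1 had 0.42 and -0.94, and Marcksl1-ps4 had 2.41 and -0.03.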

How the data were processed

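RNA of sorted islet cells was sequenced after poly-A selection (TruSeq). The authors deposited 1 table per library with FPKM values, their confidence limits and a status, in the layout of Cufflinks output, of which the version and annotation are not given in the sources used here. The submitters' processing notes name bcl2fastq 1.8.4, TopHat2 2.0.4 and mm9. The study tested counts with DESeq, which FPKM do not allow. Fragments behind a value were worked out from the confidence limits, and 66.2% of those under 500 lay within 0.02 of a whole number.

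Each table lists 23699 lines. Symbols listed more than once (248, on 712 lines) and lines marked as failed or too deep in at least 1 library of the fit (31 for Pdx-cre) were left out. Libraries were brought to a common scale with a TMM factor computed on FPKM without weights (30% and 5% trimmed), with factors of 0.934 to 1.07. Genes averaging 1 rescaled FPKM or more were tested as log2(FPKM + 1), which understates changes of low genes, in limma 3.58.1 (R 4.3.3) with the prior variance following the mean level and Foxo genotype as covariate (3 residual degrees of freedom for Pdx-cre). Tests were two-sided, with Benjamini-Hochberg adjustment over all genes of a comparison and a threshold of 0.05. The interaction model held the cre driver and genotype combinations and an ALDH effect for each driver. The procedure was also run on simulated data with normal spread, and its result is not given here. Changes were placed only in genes below the levels of Sst and Gcg, and values from few fragments were not imitated. Alternatives were other pseudocounts, filters, scalings and variance priors, repeated symbols summed, the length trend removed, other models, a replicate block and leaving out each library. Lengths for the check of length came from GENCODE vM21 for 99.0% of tested genes.

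Named genes were Aldh1a3, the Foxo genes, the hormones, list members that passed or define a list, and the first genes of each ranking (up to 10 past the threshold, otherwise 5). The members and lists were chosen with earlier results of these data known. Start positions are counted from 1, with 1 added to the deposited starts. Values of some list members are not reported here, although the list counts and medians include them.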

Additional observations from a re-analysis of the deposited data

Results flagged for a closer look

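Gpx3 differed between the lineages. Its ALDH+ over ALDH- log2 difference was 2.14 lower in Pdx-cre than in Rip-cre cells (interaction -2.14, SE 0.30, adjusted p = 0.041 by limma over 11253 genes), with the Pdx-cre ALDH+ libraries at 61.2 to 165 FPKM against 140 to 406 FPKM in ALDH- libraries. The call was lost in 12 of 15 fits with 1 library left out, with no filter on low values (adjusted p = 0.063), with no trend in the prior variance (0.105), with the length trend removed (0.158), in knockout libraries only (0.54) and with a replicate block (0.24). The Pdx-cre groups overlapped, since control ALDH+ 2 lay above knockout ALDH- 4 and 5. Groups of 3 libraries or fewer were not examined for single outlying libraries.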

How the results depend on the processing

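For the Pdx-cre comparison the 4 genes passing under limma became 2 with no filter on low values, 2 with no trend in the prior variance, 2 with the length trend removed and 2 with no Foxo genotype in the model, in each case the same 2 small RNAs and none lower. It became 11 (3 higher, 8 lower) with the spread taken from all 15 libraries and 11 (6 higher, 5 lower) in knockout libraries only, and ran from 2 to 14 with 1 library left out. For the interaction, 1 gene became 3 with no filter and 3 in knockout libraries only, Gpx3 not among them, then 0 with no trend (555 at an unadjusted p under 0.05), 0 with the length trend removed (537), and 0 to 3 with 1 library left out. For the Rip-cre comparison, 3 genes became 1 with pseudocount 5, 0 with no filter (2131 at an unadjusted p under 0.05), 1 with the length trend removed, 0 in knockout libraries only (786), and 0 to 5 with 1 library left out. Leaving out Rip-cre libraries was added after the data had been seen. Where a single library was left in a group, its spread was assumed to be that of the others.

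The labels give replicate numbers but do not say that a number joins the ALDH+ and ALDH- cells of the same animals, so the pairing was not used. Deviations of same-numbered Pdx-cre knockout libraries correlated at 0.207, a single contrast of 2 pairs, and those of the Rip-cre knockouts at 0.0918, 0.0505 and 0.0370. A replicate block, in which the 2 Pdx-cre controls, which share no number, formed 1 block, gave 7 genes (3 higher, 4 lower) in the Pdx-cre comparison, 1 in the interaction (Scarna3b, with Gpx3 at an adjusted p of 0.24) and 1 in the Rip-cre comparison (Aldh1a3), and under it Aldh1a3 in Pdx-cre cells had an adjusted p of 0.0098.

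Rbp4 and Sst in Pdx-cre cells kept log2 fold changes of -3.46 to -2.68 and -3.26 to -2.57 over 19 alternatives, and passed in 12 and 10 of them. Over 1011 values of named genes under the alternatives, 38 lost and 22 gained a call, and 9 took the other sign, 0 of them with a call. These were Foxo1, Ins2 and Iapp in Pdx-cre cells, the Aldh1a3 interaction and Rbp4 in Rip-cre cells, which went from -0.12 to 0.19 with the length trend removed. Depth limits Snora21, Scarna3b and Snord17, whose ALDH+ values rested on 1 to 7 fragments.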
